A study of Mus musculus with 4 samples.

Results

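The 40 genes described here encode proteins that carry a cell through mitosis: the kinetochore and its checkpoint, the chromosomal passenger complex, mitotic kinases, spindle motors, condensin and the machinery of anaphase. They were taken from a list of symbols, and where several probe sets name a gene, the brightest on average over the arrays (mean of log2 signals) stands for it. All 40 were found among the 18194 genes of the array, and all 40 had a signal above 100 in at least 1 population, as did 9468 genes in all. The list was not chosen by signal, but earlier results of these arrays were known when it was drawn up.

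Most of these genes are transcribed in bursts that follow the cell cycle. Their messages are low in resting cells and in G1 and accumulate in G2, when the MuvB core with B-Myb and FoxM1 acts at their promoters, and the proteins are removed by the anaphase-promoting complex at the end of division. In the embryo, primitive erythroid cells and their progenitors are known to divide rapidly, while endothelium that settles into vessels can leave the cycle.

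RNA came from cultures of Runx1(Venus/+) ES cells, a line derived from CCE ES cells, on day 6 of differentiation on OP9 stromal cells. In this line a Venus fluorescent reporter sits in 1 Runx1 allele under the proximal promoter, so that every sample, the Runx1-negative population included, is heterozygous for that insertion and comes from the same line. Population 1 was sorted as Runx1-/VE-cadherin+/Flk1+, population 2 as Runx1+/VE-cadherin+/CD41-, population 3 as Runx1+/VE-cadherin+/CD41+, and population 4 as Runx1+/VE-cadherin-/CD41+. Each was hybridised to 1 Affymetrix Mouse Genome array. Differences between populations therefore have neither a replicate check nor a test, and the small number of arrays limits their precision. The study's replicate sample set of these populations, on another array platform, was not analysed here.

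The sort markers were read first, in the order of populations 1 to 4, which is kept for all signals below. Signals of Runx1 were 55.3, 358, 1297 and 2440.2, and those of VE-cadherin (Cdh5) 5683, 3946, 4849 and 40.9, so that Runx1 was below 100 in the Runx1-negative population alone and Cdh5 in the VE-cadherin-negative population alone. CD41 (Itga2b) had 667, 1135, 2418 and 1609.5, lower in populations 1 and 2 than in populations 3 and 4, but above 100 also in population 2, which was sorted as CD41-. Signals are on the authors' linear intensity scale, and how the arrays were scaled to each other is unknown. Over the 9468 genes with a signal above 100, the median log2 ratio was 0 in population 2 over 1, 0.22 in population 3 over 2, 0.06 in population 4 over 3 and 0.36 in population 4 over 1, so that each ratio below is read against these shifts. Before ratios were formed, any signal under 100 was set to 100. The ratio of the 3′ to the 5′ probe set of Gapdh, a sign of RNA integrity, lay between 0.847 and 0.901 on the 4 arrays.

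The 40 genes had their lowest signal in population 1 and their highest in population 4 without exception, where 45.5% and 51.8% of all 9468 genes had theirs. Signals were higher in population 2 than in population 1, differed little between populations 2 and 3, and were higher again in population 4. From population 1 to 2, 38 of 40 were at least 1.5-fold higher and 0 were lower by that much, against 11% and 10.2% of all genes, while 34 were at least 2-fold higher (2.92%). The median log2 ratio of this step was 1.43, equal to 2.70-fold. From population 3 to 4, 37 were at least 1.5-fold higher, against 20.1% of all genes, and 26 at least 2-fold (7.94%), with a median log2 ratio of 1.15, or 2.22-fold. Over the whole range from population 1 to 4 the median was 2.49, or 5.61-fold, all 40 were at least 1.5-fold higher (39.6% of all genes) and 39 were at least 2-fold higher (22.4%). Because cells were measured in bulk, a larger share of dividing cells and more of these messages in each dividing cell cannot be told apart. Erythroid markers were higher in population 4 than in population 3, with 9 of 9 at least 1.5-fold higher. Their summed signal went from 6567 to 58141, with 3 of 9 below 100 in population 3 and 0 in population 4. From population 2 to 3, where the mitosis genes differed little, 4 of 9 were also at least 1.5-fold higher (14.7% of all genes). From population 1 to 2 their summed signal was 1155 and 2339, with 8 and 7 of 9 below 100. Most of these sums was Tfrc, with 907 and 1961. Of 9 megakaryocyte markers, 7 were at least 1.5-fold higher and 2 lower from population 3 to 4, against 20.1% and 19.2% of all genes. Their summed signal in populations 1 to 4 was 2562, 2132, 4313 and 5120, with 6, 6, 3 and 0 below 100. The 2 lower were Itga2b and Vwf, which together made up most of the sum in populations 1 to 3. Itga2b had 667, 1135, 2418 and 1609.5, and Vwf 1566, 694, 870 and 166. The part of both marker lists in the result was not tested.

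**Figure D1:**
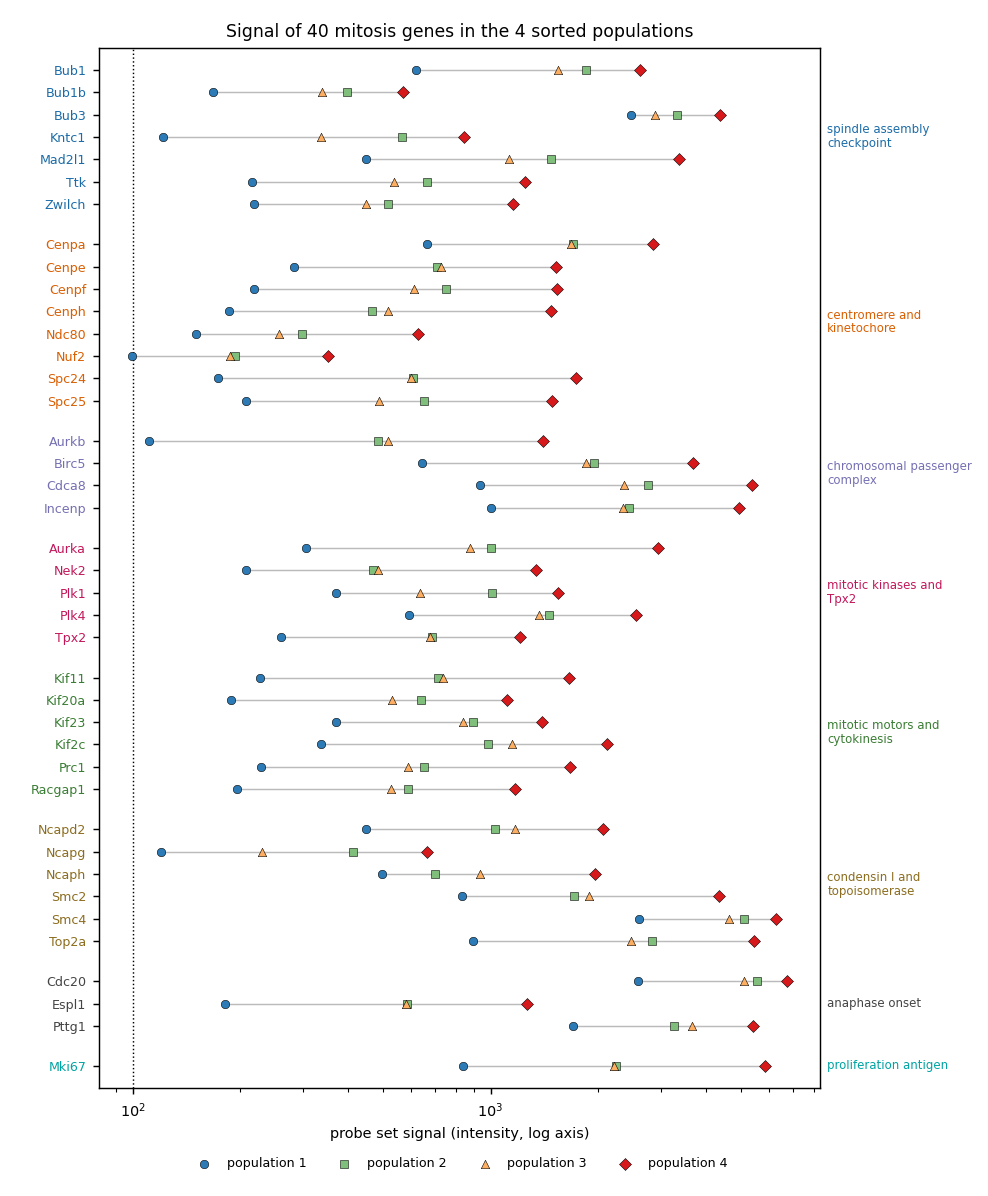
Signal (intensity, log axis) of the 40 genes in populations 1 to 4, grouped by role, with 1 array per population and so no error bars; the dotted line marks a signal of 100. In every row the circle of population 1 is leftmost and the diamond of population 4 rightmost, with populations 2 and 3 between them.

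The step between populations 2 and 3 had another form. From population 2 to 3 the median log2 ratio of the 40 genes was -0.11, while all genes had a median of 0.22. On the deposited scale 30 of the 40 genes were lower in population 3, against 17.3% of all genes, 3 were at least 1.5-fold lower (1.08% of all genes) and 0 were at least 1.5-fold higher (14.7%). The sign of the median depends on the scaling. It was -0.42 after centring each array on the median of expressed genes, -0.36 after quantile normalisation and 0.18 when the arrays were scaled on the hybridisation controls. On the deposited scale 39 of the 40 genes lay below the median of all genes. A common shift of an array cannot alter this position, apart from the floor. The count was 35 with the mean over probe sets and 34 with signals raised to 200. Ncaph, the kleisin subunit of condensin I, was the exception on the deposited scale, with signals of 698 and 936 in populations 2 and 3. Those signals come from a probe set of a kind that can be shared between transcripts. The other Ncaph probe set gave 330 and 374, a log2 ratio of 0.18, below the median of all genes.

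**Figure D2:**
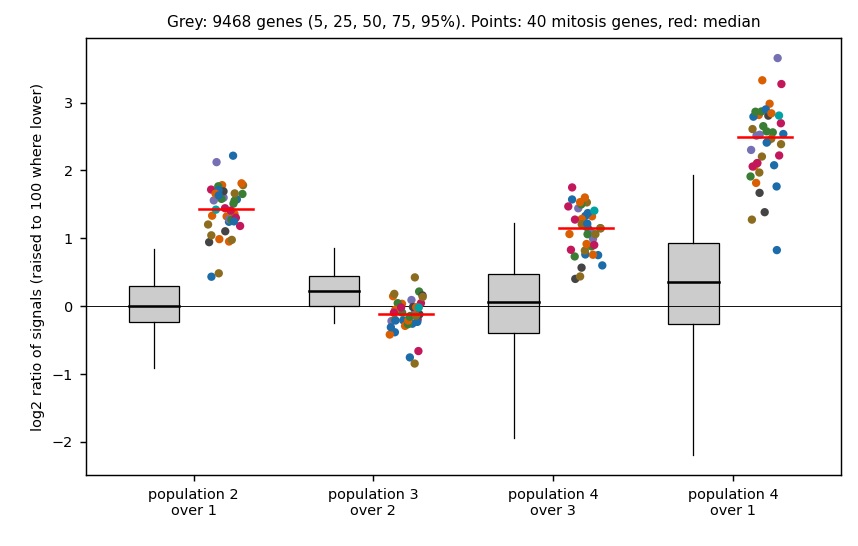
Log2 ratio of signals at each step and from population 1 to 4. Grey boxes give the median and quartiles and their lines the 5% and 95% points over 9468 genes, coloured points the 40 genes by role and red bars their median. The members' medians lie at 1.43, -0.11, 1.15 and 2.49, against 0, 0.22, 0.06 and 0.36 for all genes.

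Many promoters of the 40 genes also share short sequence elements, which the choice of genes did not use. The cell cycle genes homology region (CHR), with the letters TTTGAA, is the element through which the MuvB core contacts promoters of G2/M genes, and CCAAT boxes bound by NF-Y often lie upstream of it. RefSeq promoter windows of assembly GRCm38.p6, from 250 bases before to 50 after the annotated start, were matched by symbol for 33 of the 40 genes. TTTGAA stood on either strand in 23 of 33 windows (69.7%), against 11.6% of the windows of 7765 genes with a signal above 100 and 18.1% of those of 27025 genes in the table. Within 50 bases of the start it stood in 20 of 33 (60.6%), against 3.09% of expressed genes. The variant TTTAAA was found in 9 windows (27.3%, against 8.77%), and CCAAT on either strand in 25 (75.8%, against 39%). Both TTTGAA and CCAAT were present in 21 windows (63.6%, against 4.97%). The letters TTTCCCGC or TTTGGCGC, a form of the E2F site, were in 2 windows (6.06%, against 3.43%), and TGTGGT or TGCGGT, the forms of the Runx site, in 5 (15.2%, against 20.8%). These matches describe letters in a window and not bound sites, and a window without a match says only that the letters are not in it.

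The stretches of 30 bases around TTTGAA are shown for 7 genes, in each role but the chromosomal passenger complex the gene with the largest ratio of population 4 over 1 among those with a match. They are written 5′ to 3′ on the strand of the gene with the match in capitals, which reads TTCAAA where the element lies on the other strand.
Aurka (chr2:172370521-172370550, minus strand): aaaaggagaaccTTTGAAttgtaacggctg
Kif11 (chr19:37376351-37376380, plus strand): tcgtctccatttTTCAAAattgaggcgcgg
Spc25 (chr2:69206172-69206201, minus strand): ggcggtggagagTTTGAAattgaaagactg
Mki67 (chr7:135716460-135716489, minus strand): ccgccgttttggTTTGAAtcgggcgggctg
Espl1 (chr15:102296254-102296283, plus strand): tcactagggataTTTGAAaggaggtgctgg
Kntc1 (chr5:123749706-123749735, plus strand): ttctcccgccaaTTCAAAtcagtggcaggg
Top2a (chr11:99024195-99024224, minus strand): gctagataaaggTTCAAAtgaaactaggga
In Aurka and Spc25 the first capital lies 33 and 25 bases into the transcript, counting its first base as 1. For Kif11, Espl1, Kntc1 and Top2a it lies 19, 27, 8 and 23 bases before the start, and for Mki67 98 bases before it. From population 1 to 4 the median log2 ratio was 2.54 for the 23 genes with TTTGAA, and 2.27 for the 10 genes with a window but without it, which were Bub1, Birc5, Cenpe, Cenph, Mad2l1, Ncaph, Nek2, Nuf2, Plk4 and Pttg1.

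The spindle assembly checkpoint holds back anaphase until every kinetochore is attached. Mad2l1, which encodes the checkpoint protein that captures Cdc20, had signals of 449.6, 1472, 1128 and 3354, a difference of 7.46-fold from population 1 to 4. Kntc1, encoding the Rod subunit of the complex that brings dynein to kinetochores, had 122, 566, 335 and 842. Its partner in that complex, Zwilch, had 218, 518, 448 and 1158. Both partners were lowest in population 1, but Kntc1 was 4.65-fold higher at the first step and 1.69-fold lower in population 3 than in population 2, whereas the value of Zwilch was 0.864-fold at that step. The signal of Kntc1 in population 1 is close to 100, and with signals raised to 200 its first step was 2.83-fold. Ttk, the Mps1 kinase that starts checkpoint signalling, had signals of 215, 666, 537 and 1248. The checkpoint kinase gene Bub1 had 620.4, 1845, 1543 and 2616, and Bub1b, encoding BubR1 of the mitotic checkpoint complex, had 168, 397, 338 and 569. For these kinase genes and Bub1b the first step was larger than the last, with 2.97-fold and 1.70-fold for Bub1. Bub3, a WD-repeat protein that docks Bub1 and BubR1 at kinetochores, had the smallest difference of the 40 genes, with signals of 2464, 3329, 2882 and 4369 and a ratio of 1.77-fold. That value comes from a probe set shared between transcripts, and the brightest of its own probe sets gave a log2 ratio of at least 1.64 in place of 0.83. This probe set lay below 100 in population 1. Another of its own probe sets, above 100 in every population, gave 0.94, close to the value of the shared probe set. By the main probe sets, all 7 checkpoint genes had a lower signal in population 3 than in population 2. The log2 ratios ran from -0.75 to -0.21 on the deposited scale, where 17.3% of all genes were below 0. Without shared probe sets 6 of the 7 were below 0 and Bub3 above it, with 0.11. With the mean over probe sets 6 of the 7 were below 0 and 1 above. With scaling on the hybridisation controls, 3 of the 7 were below 0 and 4, Bub1, Bub1b, Bub3 and Zwilch, above it.

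Kinetochores are built on centromeric chromatin that carries Cenpa, the histone H3 variant of centromeres. Cenpa had signals of 662, 1699.5, 1682 and 2844, with 2.57-fold at the first and 1.69-fold at the last step. The 4 genes of the Ndc80 complex, which binds microtubules, did not move by equal amounts. Spc24 had signals of 173, 607, 600.3 and 1737. Spc25, its partner in the inner part of the complex, had 207, 653, 489 and 1483. Ndc80 itself had 150.2, 298, 257 and 626, and its partner in the outer part, Nuf2, had 99.3, 193, 187 and 352. The folds from population 1 to 4 were 10.0 and 7.17 for the inner pair and 4.17 for Ndc80, and at least 3.52 for Nuf2, which lay below 100 in population 1. Cenph, of the constitutive inner kinetochore, had 186, 466, 516 and 1473, and was among the 8 genes whose last step was larger than the first. Cenpf, a large protein of the outer kinetochore and nuclear envelope in G2, had 218, 749.6, 613 and 1534, and the motor gene Cenpe, whose protein moves chromosomes to the metaphase plate, had 282, 711, 728 and 1520.3. Over the 8 genes of this group the median differences at the first and the last step were 2.54-fold and 2.47-fold.

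The chromosomal passenger complex corrects wrong attachments and later moves to the midzone. Its kinase gene, Aurkb, had signals of 111, 485, 516 and 1402 and a difference of 12.6-fold between populations 4 and 1, the largest of the 40 genes on these settings. Both Aurkb probe sets are of kinds that can be shared between transcripts, and without such probe sets Spc24 had the largest log2 ratio, 3.33. With signals raised to 200 it was that of Aurka, 3.27. The second Aurkb probe set gave 126, 466, 426 and 1246, with the same order of populations 1, 2 and 4. In population 1 both probe sets were close to 100, so that small differences there weigh on the ratio. Survivin (Birc5), which places the complex at centromeres, had 644, 1950.0, 1845 and 3672. Borealin (Cdca8) had 932, 2745, 2359 and 5365, and the scaffold Incenp had 1003, 2432, 2339 and 4942. These other 3 subunits were, between populations 1 and 4, 5.70-fold, 5.76-fold and 4.93-fold higher. By the main probe sets, the first step exceeded the last for all 4 subunits. For Incenp, whose main probe set is of a shared kind, another probe set gave the reverse. Its log2 ratios were 0.95 at the first step and 1.18 at the last.

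Among the mitotic kinases, Aurka, the kinase of spindle poles, had signals of 304, 1000.3, 874 and 2938 and the largest last step of all 40 genes, 3.36-fold. Tpx2, which activates Aurka on spindle microtubules, had 259, 688, 679 and 1208, a difference of 4.66-fold from population 1 to 4. A second Tpx2 probe set gave 91.9, 384, 341 and 716, and a log2 ratio of population 4 over 1 of at least 2.84 in place of 2.22. Plk1, a kinase of mitotic entry, centrosomes and kinetochores, had 370.3, 1007, 637 and 1541, and was 1.58-fold lower in population 3 than in population 2. Plk4, the kinase of centriole duplication, had 591, 1459, 1365 and 2550.4. The centrosomal kinase gene Nek2 had 207, 469, 484 and 1339, so that its last step, 2.77-fold, was larger than its first, 2.27-fold. That probe set is of a shared kind. The other Nek2 probe set above 100 gave 93.7, 122, 136 and 332, and with the floor at 100 a log2 ratio of 0.29 at the first step in place of 1.18, under 1.5-fold.

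The 6 motor and cytokinesis genes had ratios of population 4 over 1 from 3.76-fold to 7.30-fold. Kif11 (Eg5), which pushes spindle poles apart, had signals of 227, 713, 735 and 1656. Prc1, the bundler of midzone microtubules, had 229, 652, 589.5 and 1666. Kif2c (MCAK), which takes microtubule ends apart, had 336, 987, 1146 and 2111, and its difference of 1.16-fold from population 2 to 3 had the opposite sign without shared probe sets, with a log2 ratio of -0.27 in place of 0.22. Centralspindlin, needed for the cleavage furrow, is made of the products of Kif23 and Racgap1, with signals of 371, 896, 839 and 1393 and of 196, 587, 527 and 1169. A second Racgap1 probe set gave 208, 395, 391 and 495, with log2 ratios of 0.34 at the last step in place of 1.15, under 1.5-fold, and of 1.25 from population 1 to 4 in place of 2.58. Kif20a, encoding the midzone motor MKLP2, had 188, 639.5, 532 and 1109. By the main probe sets, the first step was larger than the last for all 6 genes, but for Prc1 by only 0.01 on the log2 scale. Other probe sets above 100 in every population kept this order for Kif2c, Prc1 and Racgap1. For Kif11 such a probe set gave the reverse. Its log2 ratios were 1.22 at the first step and 1.62 at the last.

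Condensin I and topoisomerase II alpha shape chromosomes. Top2a had signals of 894, 2829, 2465 and 5455. The ATPase genes shared with condensin II, Smc2 and Smc4, had 831, 1714, 1884 and 4346 and 2601, 5118, 4646 and 6293. They differed in size, at 5.23-fold and 2.42-fold from population 1 to 4, and Smc4 had one of the 3 ratios under 1.5-fold at the last step, beside Cdc20 and Pttg1. The regulatory subunits of condensin I gave different profiles. Ncapg had 120.2, 413, 230.1 and 664, and from population 2 to 3 was 1.80-fold lower, the largest difference in that direction among the 40 genes, and its second probe set gave 77.1, 226, 182 and 474. Ncapd2 had 448, 1032, 1169.9 and 2065. Ncaph had 499, 698, 936 and 1953, higher at each step, and with Bub3 it was one of the 2 genes under 1.5-fold at the first step. That probe set is of a shared kind. The other Ncaph probe set gave 203, 330, 374 and 772, with a log2 ratio of 0.70 at the first step, above 1.5-fold.

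Anaphase starts when Cdc20 activates the anaphase-promoting complex, securin (Pttg1) is destroyed and separase (Espl1) cuts cohesin. Cdc20 had signals of 2584, 5551, 5106 and 6745, and its other 2 probe sets gave ratios of population 4 over 1 of 1.31 and 1.67 on the log2 scale beside 1.38. Securin had 1698, 3264, 3644 and 5399. For both, most of the difference lay at the first step, with 2.15-fold and 1.92-fold, against 1.32-fold and 1.48-fold at the last step. Separase had 181, 585, 580.4 and 1268, a difference of 6.99-fold from population 1 to 4. The Ki-67 gene Mki67, whose protein coats mitotic chromosomes and is a common marker of cycling cells, had 836, 2239.6, 2208 and 5854, so that its steps of 2.68-fold and 2.65-fold were close to equal.

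**Figure D3:**
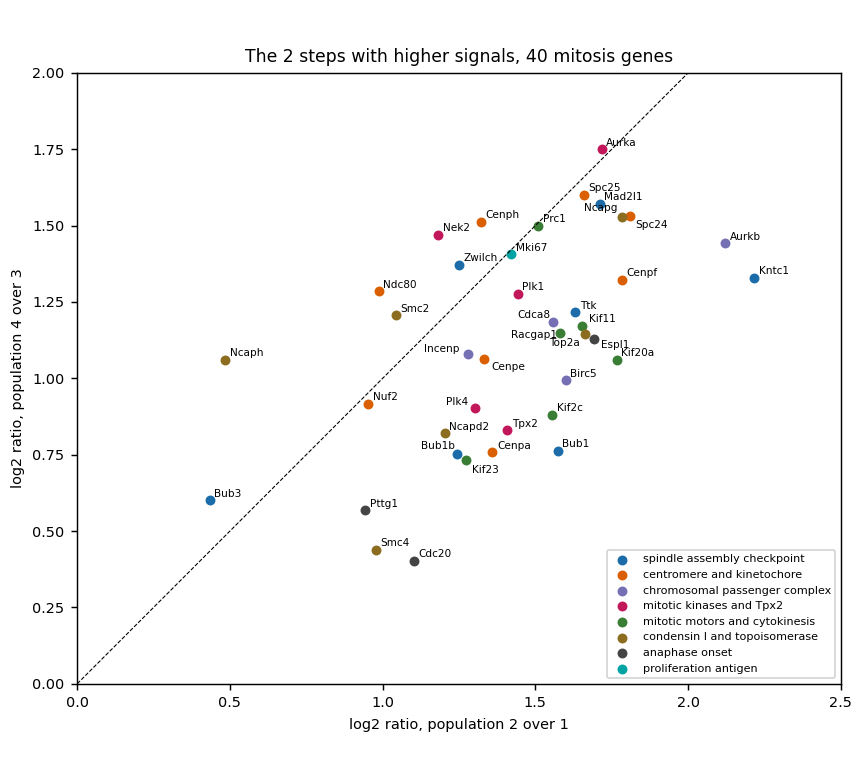
Log2 ratio of population 2 over 1 (x axis) against population 4 over 3 (y axis) for the 40 genes, coloured by role, from 1 array per population; the dashed line marks equal steps. Below the line lie 32 genes, and above it Ncaph, Bub3, Ndc80, Smc2, Nek2, Zwilch, Cenph and Aurka.

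For 32 of the 40 genes the first step was larger than the last on the log2 scale, by a median of 0.38 over all 40. A median of that size is no larger than the difference between probe sets of these genes at the first step, also 0.38. The first step was larger for 28 genes after centring and 29 without shared probe sets. When all probe sets of a gene were averaged it was larger for 22, with 17 the other way, a setting that includes probe sets near background. In all, 35 of 40 genes were at least 1.5-fold higher at both steps, against 5.53% of all genes, and 32 of these differed by less than 1.5-fold between populations 2 and 3 (5.2% of all genes). The standard deviation of the 4 log2 signals was above 1 for 21 of the 40 genes, against 14.6% of all genes. The standard deviations of the 40 genes ran from 0.35 for Bub3 to 1.51 for Aurkb, with a median of 1.04, and Cenpe (0.995) and Zwilch (0.988) lay just below 1.

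Other probe sets of the same genes were available on the same arrays for 28 of the 40 genes. Of these probe sets, 42 from 27 genes had a signal above 100 in at least 1 population. All 42 gave a higher value in population 4 than in population 3 and than in population 1. Some of them, among them probe sets of Aurka, Ttk and Spc25, were above 100 in population 4 alone. For those the direction was fixed in advance by the selection and the floor, so that they do not check it. From population 1 to 2, 32 of the 42 were higher and 0 lower, while 10 gave a ratio of 0 because both signals were below 100. From population 2 to 3, 23 were lower, 10 higher and 9 at 0. The median absolute difference to the log2 ratio of the main probe set was 0.38, 0.17, 0.26 and 0.33 for populations 2 over 1, 3 over 2, 4 over 3 and 4 over 1. Differences between genes that are smaller than these values are therefore within the spread of probe sets.

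Genes of the same pathway that are not among the 40 were read from lists. Of 30 other kinetochore and checkpoint genes with a signal above 100, 26 were higher by at least 1.5-fold from population 1 to 4 and 0 lower, against 39.6% and 18.3% of all genes, with a median log2 ratio of 1.83. Cenpp and Cenpk, which encode inner kinetochore proteins, had signals of 96.2, 278, 267 and 1225 and of 102, 225, 261 and 1077. Knl1, the scaffold on which Bub1 assembles, had 85.8, 359, 345 and 843. Of 25 other genes of motors, spindle and cytokinesis, 24 were higher by that much (39.6% of all genes), with a median of 1.96, among them Hmmr (270.3, 895, 716 and 2077) and the kinesin-14 gene Kifc1 (232, 739, 616 and 1511). All 3 genes particular to condensin II were higher, with a ratio of population 4 over 1 of 9.14-fold for Ncapg2 and 1.99-fold for Ncaph2.

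The upstream regulators of mitosis were less uniform. Of 19 genes of G2/M cyclins, kinases and regulators, 16 were higher by at least 1.5-fold from population 1 to 4 (39.6% of all genes) and 0 lower (18.3%), with medians of 0.68, -0.05 and 0.75 at the 3 steps. Cyclin A2 (Ccna2) had 419, 1534, 1378 and 3187. The phosphatase genes Cdc25b and Cdc25c, which activate Cdk1, were low until population 4, with 49.1, 119.8, 125 and 667 and 33.1, 161, 134 and 517. Foxm1 had 139, 111, 101 and 174. Its log2 ratio at the first step was -0.32, opposite in direction to the 40 genes but under 1.5-fold. Mybl2, the gene of B-Myb, had 69.6, 168, 116 and 199. Both lay close to or below 100 in some populations. Subunits and inhibitors of the anaphase-promoting complex, whose subunits are present through the cycle, had medians of 0.19, 0.27 and 0.37 over 16 genes, beside 0, 0.22 and 0.06 over all genes. Of the 16 genes, 10 were at least 1.5-fold higher in population 4 over 1, against 39.6% of all genes. The largest difference among them was that of the inhibitor Fbxo5 (Emi1), with 386, 972, 742 and 2452. Cohesin and its regulators had medians of 0.20, 0.29 and 0.34 over 15 genes, with the largest difference from population 1 to 4 for the acetyltransferase gene Esco2, at least 10.7-fold.

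**Figure D4:**
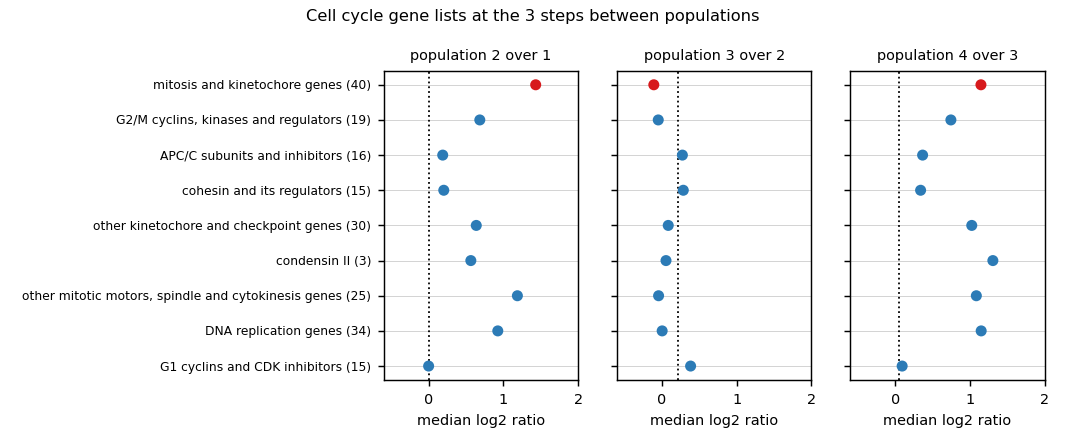
Median log2 ratio of each list (number of genes with a signal above 100 in brackets) at the 3 steps, red for the 40 genes and blue for other cell cycle lists, with the dotted line at the median of all 9468 genes. At the first step the 40 genes lie at 1.43, DNA replication genes at 0.93 and G1 cyclins and CDK inhibitors at 0.

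Genes of DNA replication, which peak in S phase, were also higher at the first and the last step. Over 34 genes the medians were 0.93, 0.00 and 1.15 at the 3 steps, beside 1.43, -0.11 and 1.15 for the mitosis genes, and 34 of 34 were higher by at least 1.5-fold from population 1 to 4 (39.6% of all genes). The difference between these lists has no test with 1 array per population. Of 15 genes of G1 cyclins and CDK inhibitors, 5 were at least 1.5-fold higher and 5 lower from population 1 to 4, against 39.6% and 18.3% of all genes. The inhibitor gene Cdkn1c (p57) had signals of 3451, 989, 1502 and 188 and cyclin D1 (Ccnd1) had 1582, 2499.7, 1549.6 and 212, both opposite in direction to the 40 mitosis genes from population 1 to 4. Endothelial markers, whose summed signal was 34991, 22382, 28573 and 3288, were also lowest in population 4, with 12 of 12 at least 1.5-fold lower than in population 1 and 5 of 12 below 100. Stromal markers of the kind expressed by OP9 cells had summed signals of 11373, 10266, 10758 and 6548, with 5, 6, 6 and 6 of 10 below 100. Most of each sum was Fn1, with 8134, 8311, 9004 and 5118, so that the sums say little of the other stromal markers. From population 1 to 2, 0 of 5 with a signal above 100 were at least 1.5-fold higher, against 11% of all genes. Lower by that much were 2 of the 5 (10.2% of all genes), Col3a1 (658 and 334) and Col1a2 (1988 and 1132). The part of these markers in the values of the mitosis genes was not tested.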

How the data were processed

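Day 6 cells of 4 sorted populations were hybridised by the authors to Affymetrix mouse arrays, 1 per population. The deposited values are intensity signals of probe sets, not log transformed, and the processing notes of the submitters name MAS5 and GCOS 1.3. The target of any scaling and detection calls are not given in the sources used here. The arrays are not on equal levels, as the mean signal after removing 2% at each end ran from 216 to 266.

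The annotation gave 1 gene symbol to 34958 of 45101 probe sets, which were used. It gave several to 932 and none to 9211. Symbols were updated by gene ID from RefSeq (GRCm38.p6, names only). Each of 18194 genes was represented by its brightest probe set (mean of log2 signals). For log2 ratios any signal under 100 was set to 100, which makes folds against it lower bounds. Counts and medians were set beside those over all genes with a signal above 100, and no test was run. Folds of 1.5 and 2 were counted. Python 3.11.15, pandas 2.3.3, numpy 2.4.6 and matplotlib 3.10.9 were used, and the counting was tested on simulated data.

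The members, their roles and the other lists were chosen with earlier results of these data known. All 40 genes are named, with up to 4 of each other cell cycle list and the sort markers, by size of the ratio of population 4 over 1, of which some are given here. Foxm1, Mybl2, Tfrc and Fn1 are named outside this rule. Promoter letters were searched on both strands in the first window listed per gene, and the Runx letters, the spaced element and the distance of 50 bases from the start were added after the data were seen. Alternatives were centring, quantile normalisation, hybridisation control scaling, other rules for probe sets and other floors. The promoter stretch of 1 gene is not reported here. Other data of the study were not used here.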

Additional observations from a re-analysis of the deposited data

How the results depend on the processing

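The direction of the median at the first step, at the last step and from population 1 to 4 was kept under each of the 7 alternatives run (centring, quantile normalisation, scaling on the hybridisation controls, the mean over probe sets, leaving out shared probe sets, which leaves 39 of the 40 genes, and signals raised to 50 or 200). The counts of genes at least 1.5-fold higher at these steps stayed within 1.5 times of 38, 37 and 40, and were lowest with the mean over probe sets, at 32, 34 and 37. The median log2 ratio of population 2 over 1 was 1.17 in place of 1.43 with the mean over probe sets. The median of population 4 over 1 was 2.19 after centring and 2.79 with scaling on the hybridisation controls, in place of 2.49. From population 2 to 3, the median was -0.42 after centring, -0.36 after quantile normalisation and 0.18 with scaling on the hybridisation controls, in place of -0.11. There, 7, 7 and 0 genes were at least 1.5-fold lower under these scalings in place of 3, and 1 gene was at least 1.5-fold higher with scaling on the hybridisation controls in place of 0. Centring and control scaling shift all log2 ratios of a pair of arrays by 1 amount, apart from signals set to the floor. Over single genes, 825 recomputed log2 ratios moved by less than the median difference between probe sets of a gene and 291 by more. That difference was taken over all genes. It was 0.19, 0.17, 0.23 and 0.29 for populations 2 over 1, 3 over 2, 4 over 3 and 4 over 1. No ratio of at least 1.5-fold changed sign, but some fell to 0 with the mean over probe sets. At the first step these were Top2a, Racgap1 and Nek2, from 1.66, 1.58 and 1.18. Under that setting the lowest ratio was also 0 at the last step and from population 1 to 4. No paired analysis was possible because each population has 1 array. For the same reason no array could be left out of a group, and signals near or below 100 limit what can be said of Nuf2, Aurkb, Ncapg and Kntc1 in population 1.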

Other observations

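Genes other than the 40 can be chosen by promoter letters alone. This choice was made after the promoter result was seen and has no test. Among genes with a signal above 100 and none of the 40, 220 had TTTGAA within 50 bases of the start. They had a median log2 ratio of 0.22 in population 2 over 1, 0.35 in population 4 over 3 and 0.81 in population 4 over 1, beside 0, 0.06 and 0.37 over 7732 genes with a window. From population 1 to 2, 29.5% of them were higher by at least 1.5-fold, against 10.6%, and from population 3 to 4 36.8%, against 19.9%. With CCAAT in the window as well, 110 genes had medians of 0.33, 0.46 and 1.03. When the other cell cycle lists were also left out, 189 genes with TTTGAA near the start had 0.12, 0.25 and 0.68, beside 0, 0.06 and 0.36 over 7603 genes. Of these 189, 20.6% were at least 1.5-fold higher from population 1 to 2, against 9.77%. From population 3 to 4 the share was 31.2%, against 19.1%. Genes with CCAAT but without TTTGAA near the start had medians of 0.01, 0.09 and 0.42 over 2895 genes.

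A spaced pair of elements, GGCGG and TTTGAA with 4 bases between them, was found in 1 of the 33 windows, that of Cenpf, and in 8 of 7765 windows of expressed genes.

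The G1 genes held members on each side. Cyclin E2 (Ccne2), which acts at the entry to S phase, had signals of 114.6, 185, 265 and 967, and the inhibitor gene Cdkn2d had 416, 686, 1194 and 2037.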
